A study of Mus musculus with 6 samples.

Results

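A set of 8 genes of the complement C1q molecule and of microglia (C1qa, C1qb, C1qc, Csf1r, Cx3cr1, Tyrobp, Trem2 and Aif1) was followed in the paraventricular nucleus (PVN) of the mouse hypothalamus after a single electroconvulsive seizure (ECS). Every probe set whose only gene symbol was one of these names was taken, which gave 14 probe sets of 8 genes, of 20380 single-symbol probe sets of 12393 genes on the array. The genes were selected on measured values of these arrays, above all the difference of C1qc between the ECS 6 h and sham arrays. The changes of these genes between the groups are therefore given as descriptions with their errors and without p-values.

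The PVN of C57Bl/6 mice was cut by laser microdissection from stained frozen sections of 7 µm, and RNA of 2 or 3 animals was pooled for each array. Tissue of the ECS 6 h group and the ECS 2 h group was collected 6 h and 2 h after 1 shock under isoflurane (25 mA for 1 s at 100 pulses per s, pulse width 0.5 ms, through ear clips), and the sham group was handled alike without a shock and collected at 2 h. Each group had 2 arrays, numbered replicate 1 and 2, and the whole experiment was run on 2 sets of animals. The labels do not say that the replicate number marks the run. There was no sham group at 6 h, so ECS and the 4 h between collections cannot be told apart in the comparison of ECS 6 h with sham. Neither the age nor the sex of the mice is given in the labels.

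C1q starts the classical complement pathway: it is assembled from A, B and C chains, which C1qa, C1qb and C1qc encode, and it binds antibody complexes, dying cells and synapses. In the brain it is made mainly by microglia, the resident macrophages. Microglia depend on the receptor Csf1r for survival, carry the fractalkine receptor Cx3cr1 and the lipid-sensing receptor Trem2, signal from Trem2 through the adaptor Tyrobp (DAP12), and contain the actin-binding protein Aif1 (Iba1), which is widely used to stain them. The PVN itself is best known for the neurons that drive the stress hormone axis and release oxytocin and vasopressin.

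The 3 C1q genes lie in a row on chromosome 4 in the RefSeq annotation of GRCm38.p6, in the order C1qb, C1qc and C1qa, with 0 other genes between the outermost of them. The promoters of C1qb and C1qc, neighbours whose values are set against each other throughout the results, are shown from 250 bases before to 50 bases after the start site, 5′ to 3′ on the minus strand (RefSeq, GRCm38.p6). C1qb covers chr4:136886151-136886450 and C1qc covers chr4:136892865-136893164. Capitals mark GAGGAA, the core letters bound by PU.1, a transcription factor of macrophages and microglia, or their reverse complement TTCCTC.

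C1qb: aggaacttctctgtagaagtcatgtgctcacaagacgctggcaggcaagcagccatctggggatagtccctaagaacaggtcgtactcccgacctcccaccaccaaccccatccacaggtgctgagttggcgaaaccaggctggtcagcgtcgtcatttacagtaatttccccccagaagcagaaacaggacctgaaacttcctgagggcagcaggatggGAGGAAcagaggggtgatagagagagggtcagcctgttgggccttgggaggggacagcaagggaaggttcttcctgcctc

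C1qc: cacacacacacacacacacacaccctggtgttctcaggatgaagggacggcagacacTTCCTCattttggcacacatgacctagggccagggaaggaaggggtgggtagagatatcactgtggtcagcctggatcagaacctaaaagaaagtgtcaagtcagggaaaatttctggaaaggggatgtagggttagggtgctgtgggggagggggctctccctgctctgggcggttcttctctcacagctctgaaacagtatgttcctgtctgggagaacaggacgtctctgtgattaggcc

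The PU.1 letters began 30 bases before the start site in C1qb and 193 bases before it in C1qc. A RefSeq promoter was at hand for 5 of the 8 genes, namely C1qb, C1qc, Cx3cr1, Aif1 and Trem2, and 4 of these 5 held the PU.1 letters on either strand, Cx3cr1 being the one that did not. The same letters stood in 28.3% of 32851 promoters of this length. TGANTCA, the AP-1 site of the Fos and Jun proteins, stood in 1 of the 5, that of Trem2, where it did not overlap the PU.1 letters, and in 7.81% of all promoters. TGACGTCA, the cAMP response element, stood in 0 of the 5 and in 1.79% of all promoters, and the glucocorticoid response element, searched on both strands, in 0 of the 5 and in 0.475%. These matches describe the letters only.

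Values below are the deposited intensities in arbitrary units, and changes are differences of log2(quantile-normalised intensity + 16), which has its floor at 4 and shrinks the changes of dim probe sets. Errors of means are the SD of the 2 arrays of a group, and errors of changes are the standard error (SE) of a linear model over all 6 arrays (limma). Probe sets bind their targets unequally, so levels are compared only within a probe set, and only changes are compared between probe sets. Whether the arrays of 2 groups overlap was judged on the normalised scale, which can differ from the deposited intensities. RNA was measured in bulk tissue, where fewer microglia and less RNA per microglial cell cannot be told apart.

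C1qc was the one C1q chain whose probe set, 1449401_at, separated the 3 groups: it was highest on both ECS 6 h arrays and lowest on both ECS 2 h arrays. Its intensity was 148.1 and 159.7 on the ECS 6 h arrays, 12.6 and 36.3 on the ECS 2 h arrays, and 45.7 and 74.8 on the sham arrays. None of the 3 groups overlapped another, and the lowest value, in ECS 2 h replicate 1, lay under the median of its array. On the log2 scale C1qc averaged 7.33 ± 0.012 in ECS 6 h, 5.32 ± 0.496 in ECS 2 h and 6.21 ± 0.020 in sham (SD, n = 2 each). It was higher in ECS 6 h than in sham by 1.13 ± 0.397, a size of 2.19-fold on this scale, with 1.15 in replicate 1 and 1.11 in replicate 2. It was lower in ECS 2 h than in sham, by -0.88 ± 0.397, with -1.22 in replicate 1 and -0.55 in replicate 2. That deficit depended on how dim values were treated, being -1.27 with an offset of 1 and -0.46 with an offset of 64. Between the ECS groups, ECS 6 h minus ECS 2 h was 2.01 ± 0.397, a size of 4.03-fold, with 2.37 in replicate 1 and 1.65 in replicate 2.

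Set among all 12662 tested probe sets, C1qc's ECS 6 h minus ECS 2 h change was exceeded by 3, or 0.0237%. Its ECS 6 h minus sham change was exceeded by 114 (0.900%), and 386 (3.05%) lay below its ECS 2 h minus sham change. The order ECS 2 h below sham below ECS 6 h on all arrays was found for 110 probe sets (0.869%), and the opposite order for 125 (0.987%). Nothing is read from these ranks, since C1qc was chosen for its values.

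**Figure D1:**
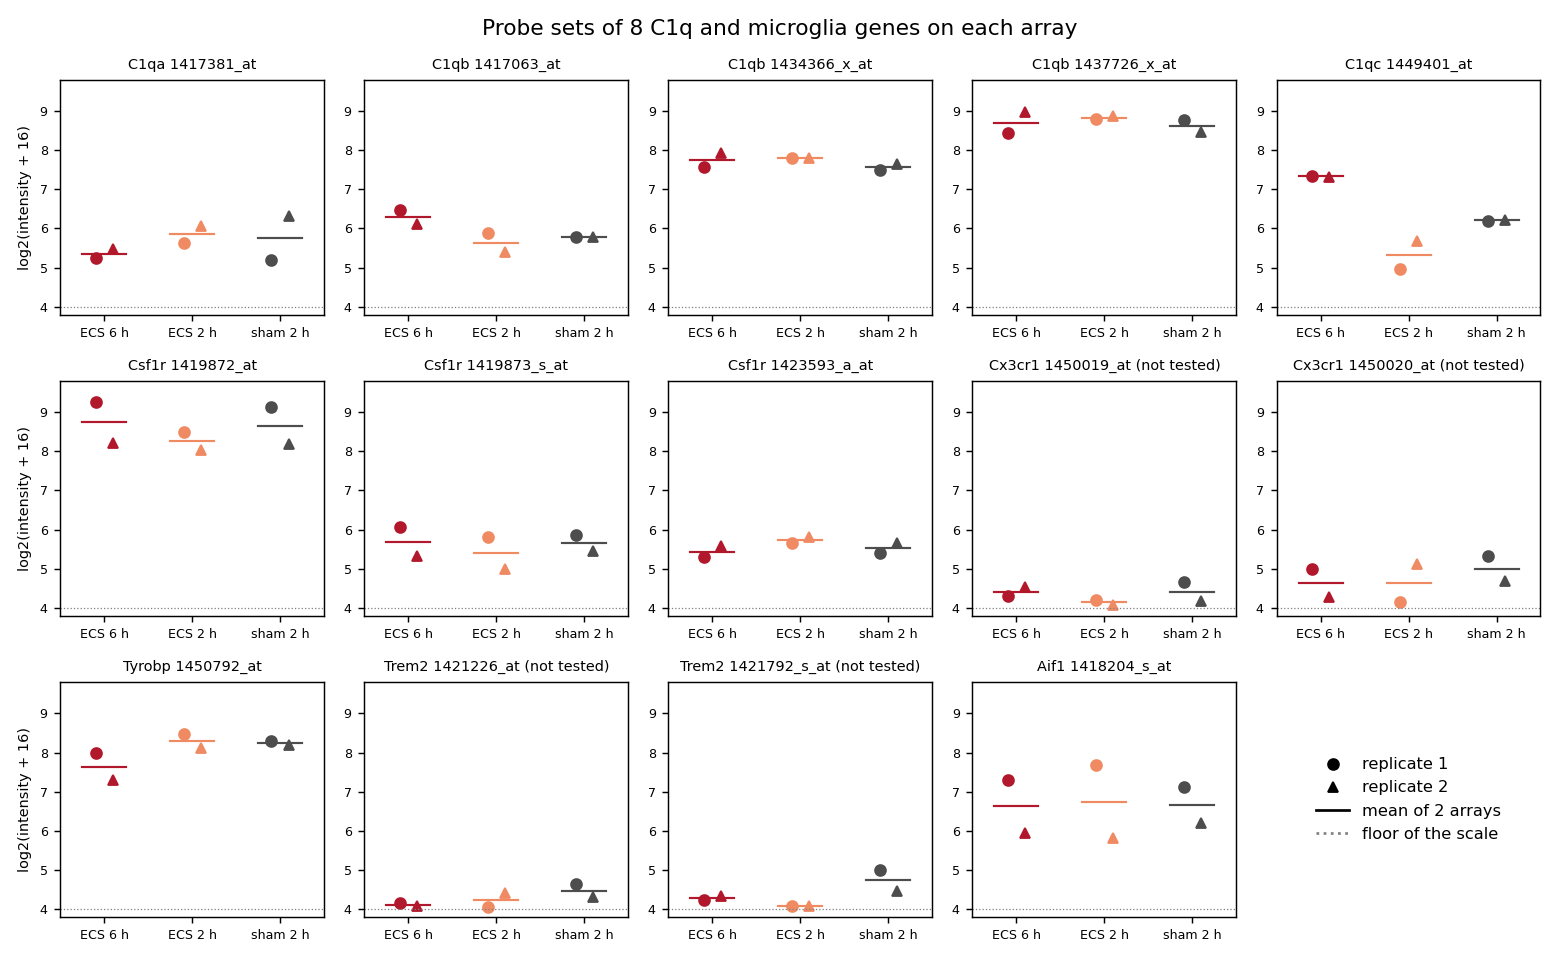
Each panel is 1 probe set, with log2(intensity + 16) after quantile normalisation on the vertical axis and the ECS 6 h, ECS 2 h and sham arrays along the horizontal axis (circles replicate 1, triangles replicate 2, bars the mean of 2 arrays, dotted line the floor of 4). C1qc alone of the tested probe sets has 3 groups that do not overlap, Aif1 and Csf1r 1419872_at split by replicate number, and both probe sets of Cx3cr1 and of Trem2 lie near the floor.

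C1qa, the A chain, did not follow C1qc. Its probe set 1417381_at had intensities of 19.2 and 31.9 in ECS 6 h, 26.9 and 53.5 in ECS 2 h, and 17.4 and 81.1 in sham. It reached the array median on 3 of 6 arrays. Both ECS 6 h arrays and sham replicate 1 lay under it, so its direction at 6 h rests on dim values. The sham arrays spanned both ECS groups, and the SD of the sham mean, 5.76 ± 0.791 on the log2 scale, was the widest of the 3 groups. ECS 6 h minus sham was -0.41 ± 0.490, with 0.03 in replicate 1 and -0.86 in replicate 2, and ECS 2 h minus sham was 0.09 ± 0.490. ECS 6 h minus ECS 2 h was -0.50 ± 0.490, the opposite sign to C1qc. After normalisation both ECS 6 h arrays, at 5.24 and 5.46, lay below the 5.63 and 6.07 of ECS 2 h, whereas the deposited values overlapped.

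C1qb, the B chain, had 3 probe sets. Only 1417063_at, the dimmest of them, ran the same way as C1qc: its intensities were 69.5 and 59.7 in ECS 6 h, 34.8 and 26.7 in ECS 2 h, and 31.4 and 50.8 in sham. Both ECS 6 h arrays stood above the other 4, by 0.50 ± 0.413 over sham and 0.65 ± 0.413 over ECS 2 h, while ECS 2 h minus sham was -0.15 ± 0.413 and the arrays overlapped. The brighter probe sets 1434366_x_at and 1437726_x_at, whose x suffix marks probes that may also bind other transcripts, overlapped between ECS 6 h and each of the other groups. In ECS 2 h minus sham both were higher without overlap after normalisation, where C1qc was lower. Those 2 changes were within their SE of 0, and the deposited values overlapped. Probe set 1437726_x_at had intensities of 349.5 and 517.7 in ECS 6 h, 345.3 and 474.1 in ECS 2 h, and 329.8 and 409.3 in sham. Its changes were 0.09 ± 0.306 in ECS 6 h minus sham, 0.22 ± 0.306 in ECS 2 h minus sham and -0.12 ± 0.306 in ECS 6 h minus ECS 2 h. Probe set 1434366_x_at, at 175.9 and 248.5 in ECS 6 h, 167.9 and 217.1 in ECS 2 h, and 129.0 and 230.4 in sham, gave 0.18 ± 0.333, 0.23 ± 0.333 and -0.05 ± 0.333 in the same order of comparisons. Between the ECS groups the 2 brighter probe sets were within their SE of 0, and without ECS 6 h replicate 1 the changes were 0.47 for 1417063_at, 0.14 for 1434366_x_at and 0.14 for 1437726_x_at.

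The gap between C1qc and its partner chains was taken within each array, as C1qc minus the mean of C1qa and C1qb (the brightest C1qb probe set), relative to the sham mean. It was 1.49 and 1.09 in ECS 6 h, -1.26 and -0.81 in ECS 2 h, and 0.19 and -0.19 in sham. The 3 groups did not overlap. C1qa lay under the array median on both ECS 6 h arrays, so the gap there rests in part on dim values. The gap differed by 1.29 in ECS 6 h minus sham, by -1.03 in ECS 2 h minus sham and by 2.32 in ECS 6 h minus ECS 2 h, beside a spread between replicates of 0.288 (SD). The last of these was 2.74 in replicate 1 and 1.90 in replicate 2, and 2.12 without ECS 6 h replicate 1. With the C1qb probe set 1417063_at in place of the brightest, an alternative chosen after seeing the data, it was 1.94.

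**Figure D2:**
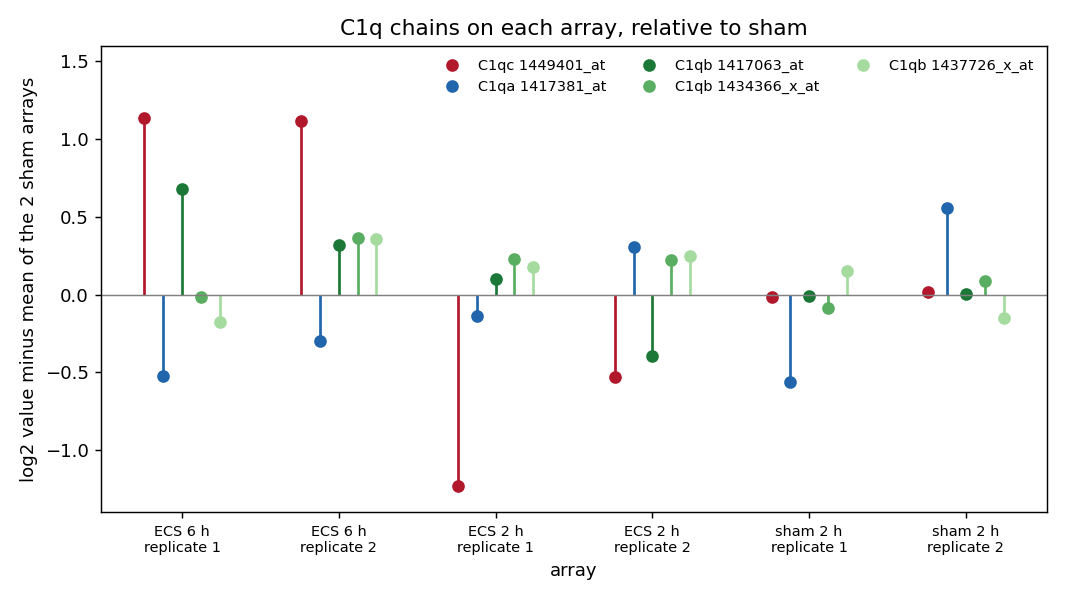
The log2 value of each C1q probe set minus its mean over the 2 sham arrays (vertical axis) on each of the 6 arrays (horizontal axis). C1qc is above 1 on both ECS 6 h arrays and below 0 on both ECS 2 h arrays, whereas C1qa is below 0 on both ECS 6 h arrays and the 2 brighter C1qb probe sets stay within 0.4 of the sham mean.

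The same difference was taken between C1qc and each of the 13 other probe sets of the 8 genes. Against sham, C1qc at 6 h exceeded every one of them without overlap of arrays, by 0.63 over C1qb 1417063_at at the least and by 1.73 over Tyrobp at the most. Against ECS 2 h it did so too, by 1.36 over C1qb 1417063_at to 2.66 over Tyrobp. Between ECS 2 h and sham C1qc was lower than all 13, but the arrays overlapped against Csf1r 1419872_at and 1419873_s_at, Cx3cr1 1450019_at, Trem2 1421792_s_at and Aif1. These differences share the values of C1qc, for which it was chosen. Of all tested probe sets, 0.900% exceeded its ECS 6 h minus sham change and 0.0237% its ECS 6 h minus ECS 2 h change. The outcome over the 13 was therefore nearly set by that choice, and nothing is read from it. The probe sets of Cx3cr1 and Trem2 also lie near the floor, where the offset leaves them little room to move.

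Csf1r, the receptor for Csf1 and Il34 on which microglia depend, showed no separation of either ECS group from sham on the normalised scale in any of its 3 probe sets. The brightest, 1419872_at, had intensities of 654.2 and 302.5 in ECS 6 h, 278.0 and 258.8 in ECS 2 h, and 428.4 and 340.0 in sham. As deposited, both ECS 2 h values were below all others, but after normalisation, at 8.49 and 8.04, they overlapped the 9.27 and 8.21 of ECS 6 h and the 9.13 and 8.18 of sham. Its changes were 0.09 ± 0.430 in ECS 6 h minus sham, -0.39 ± 0.430 in ECS 2 h minus sham and 0.48 ± 0.430 in ECS 6 h minus ECS 2 h. Without ECS 6 h replicate 1, ECS 6 h minus sham turned to -0.44 and ECS 6 h minus ECS 2 h to -0.05. Probe set 1419873_s_at, between 15.6 and 46.4 over the 6 arrays, gave 0.03 ± 0.490, -0.26 ± 0.490 and 0.30 ± 0.490 in the same order. Probe set 1423593_a_at, between 20.7 and 44.5, gave -0.09 ± 0.429, 0.20 ± 0.429 and -0.29 ± 0.429, and after normalisation it alone of the 3 had no overlap between the ECS groups, with ECS 6 h lower, while its deposited values overlapped.

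Cx3cr1 and Trem2, the receptors for fractalkine and for lipids, were at the edge of what the array could show. All 4 of their probe sets lay under the array median on all 6 arrays and were not tested. Cx3cr1 1450020_at had 14.2 and 3.9 in ECS 6 h, 1.5 and 19.0 in ECS 2 h, and 19.8 and 12.3 in sham, and Cx3cr1 1450019_at stayed between 0.8 and 8.2. Their groups overlapped except for 1450019_at between the ECS groups, where the 3.4 and 7.7 of ECS 6 h stood above the 2.0 and 0.8 of ECS 2 h. Trem2 1421792_s_at had 2.5 and 4.8 in ECS 6 h, 0.8 and 0.7 in ECS 2 h, and 13.8 and 7.7 in sham, so that both ECS groups were lower than sham without overlap, by -0.44 ± 0.215 and -0.66 ± 0.215 on the log2 scale. Trem2 1421226_at had 1.5 and 1.0 in ECS 6 h, 0.6 and 5.0 in ECS 2 h, and 8.0 and 4.8 in sham, and only its ECS 6 h arrays were below sham without overlap, by -0.36 ± 0.189. At intensities this far under the offset of 16, an order between arrays carries little weight.

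Tyrobp, the adaptor through which Trem2 signals, was lower in ECS 6 h than in both other groups. Its probe set 1450792_at had intensities of 247.4 and 156.1 in ECS 6 h, 273.0 and 273.4 in ECS 2 h, and 233.4 and 342.2 in sham. After normalisation both ECS 6 h arrays lay below the other 4, although the deposited 247.4 of ECS 6 h replicate 1 was above the 233.4 of sham replicate 1. The change was -0.60 ± 0.351 in ECS 6 h minus sham and -0.65 ± 0.351 in ECS 6 h minus ECS 2 h, and ECS 2 h minus sham was 0.05 ± 0.351. Replicate 1 gave -0.30 and replicate 2 gave -0.90 in ECS 6 h minus sham.

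Aif1, the cytoskeletal marker of microglia, differed more between replicate numbers than between groups. Its probe set 1418204_s_at had intensities of 143.9 and 51.3 in ECS 6 h, 153.1 and 42.1 in ECS 2 h, and 96.9 and 73.0 in sham. All comparisons overlapped, with -0.03 ± 0.643 in ECS 6 h minus sham, 0.09 ± 0.643 in ECS 2 h minus sham and -0.13 ± 0.643 in ECS 6 h minus ECS 2 h. Without ECS 6 h replicate 1 these became -0.72 in ECS 6 h minus sham and -0.81 in ECS 6 h minus ECS 2 h.

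**Figure D3:**
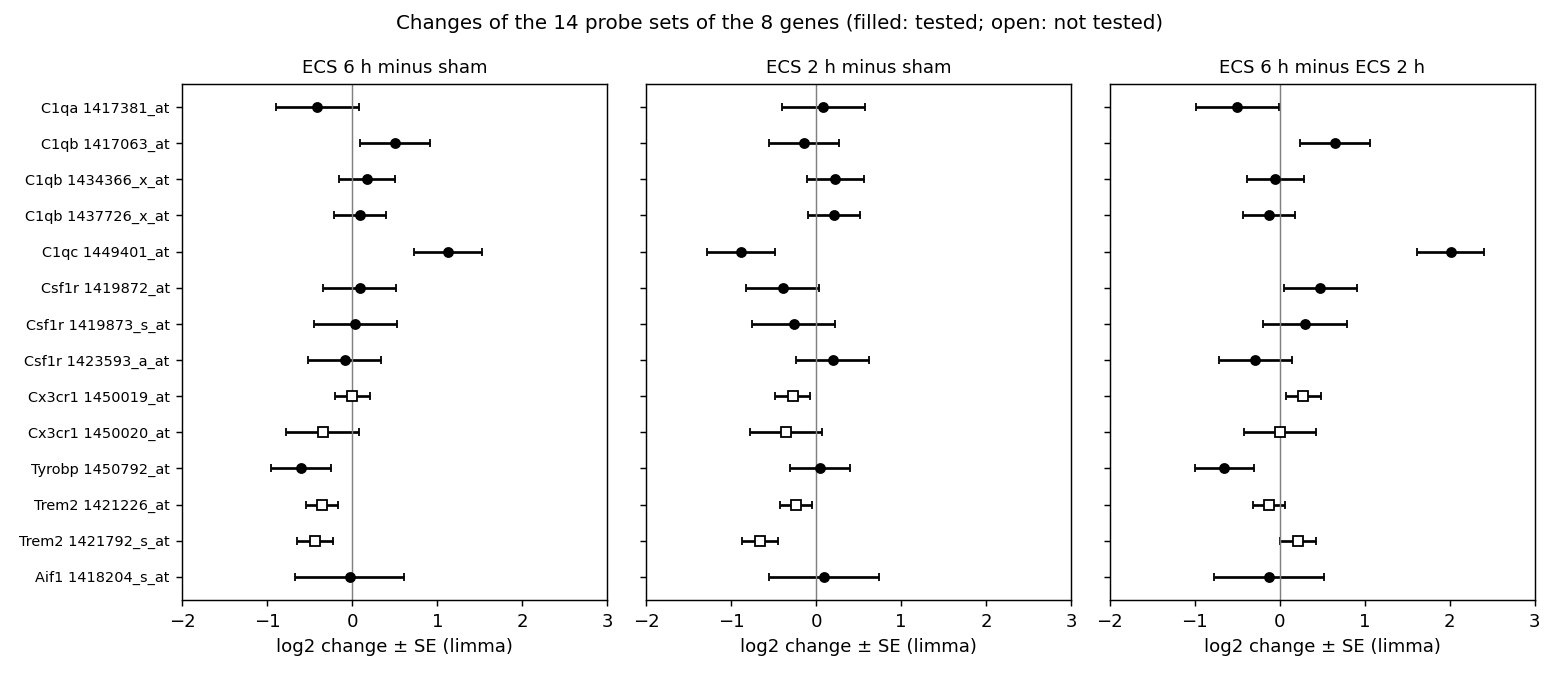
Log2 change (points) with the SE of the limma fit (bars) of the 14 probe sets in ECS 6 h minus sham, ECS 2 h minus sham and ECS 6 h minus ECS 2 h, filled where tested and open where dim and not tested. C1qc is the farthest from 0 in each panel, at 1.13, -0.88 and 2.01, and no other tested probe set passes 0.65 in size.

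Over the whole set, 10 of the 14 probe sets, of 6 of the 8 genes, were bright enough to be tested. limma with Benjamini-Hochberg adjustment over 12662 probe sets called 0 of the 10 in each comparison, where the share called over all probe sets was 0%. A fit that added the replicate as a block called 0 of the 10 as well, beside 0% in both comparisons of ECS 6 h and 0.0316% (4 probe sets) in ECS 2 h minus sham. At an unadjusted p under 0.05 the fit without the block passed 475 probe sets (3.75%) in ECS 6 h minus sham, 507 (4.004%) in ECS 2 h minus sham and 438 (3.46%) in ECS 6 h minus ECS 2 h, and the fit with it 793, 826 and 720. Of the 10, in ECS 6 h minus sham, 2 were higher and 1 lower without overlap of arrays, beside 14.8% higher and 15.3% lower over all tested probe sets. For ECS 2 h minus sham these were 2 higher and 1 lower, beside 16.3% and 16.4%. For ECS 6 h minus ECS 2 h they were 2 higher and 3 lower, beside 14.4% and 15.0%. The median change of the 10 was 0.06 in ECS 6 h minus sham, 0.07 in ECS 2 h minus sham and -0.09 in ECS 6 h minus ECS 2 h, and that of all tested probe sets lay within 0.01 of 0 in each. The 2 ECS comparisons with sham share the sham arrays.

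**Figure D4:**
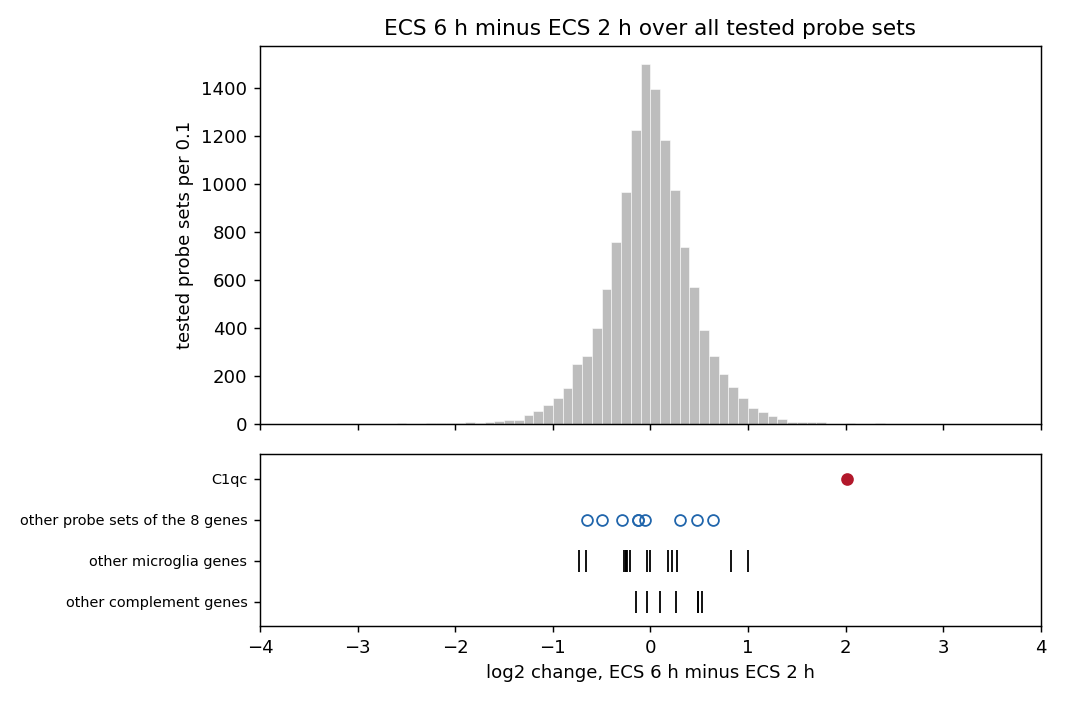
The upper panel is a histogram of the log2 change in ECS 6 h minus ECS 2 h over the 12662 tested probe sets, and the lower panel marks C1qc, the other tested probe sets of the 8 genes, and the tested genes of the wider microglia and complement lists (1 probe set a gene) on the same axis. C1qc stands at 2.01, the other probe sets of the 8 genes lie between -0.65 and 0.65, and the listed microglia and complement genes between -0.73 and 1.00.

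The replicate number, which the choice of genes did not use, was examined in the same fit as a term of its own, after seeing the data. Aif1 was higher in replicate 1 than in replicate 2 by 1.39 ± 0.306 (limma, adjusted p = 0.0701), with 3 arrays of replicate 1 between 7.12 and 7.67 and 3 of replicate 2 between 5.82 and 6.19. Csf1r 1419872_at was higher in replicate 1 by 0.82 ± 0.221 (limma, adjusted p = 0.122), again without overlap, and Csf1r 1419873_s_at by 0.66 ± 0.344 (limma, adjusted p = 0.420). The third Csf1r probe set, 1423593_a_at, went the other way by -0.23 ± 0.341 (limma, adjusted p = 0.811). None passed the threshold of 0.05, at which 49 probe sets (0.387%) were higher and 65 (0.513%) lower in replicate 1. C1qc, at -0.24 ± 0.315 (limma, adjusted p = 0.783), C1qa, at -0.60 ± 0.354 (limma, adjusted p = 0.476), and Tyrobp, at 0.38 ± 0.243 (limma, adjusted p = 0.505), overlapped between the replicate numbers. Of the 10 tested probe sets 3 were higher and 0 lower in replicate 1 without overlap, beside 9.90% higher and 9.71% lower over all tested probe sets.

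**Figure D5:**
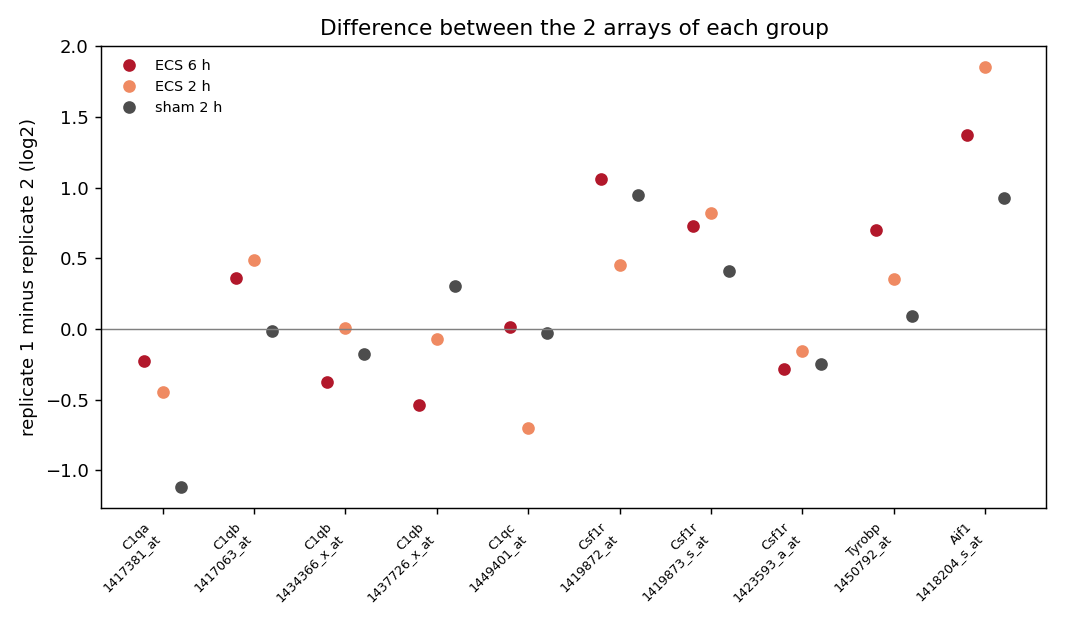
Replicate 1 minus replicate 2 on the log2 scale (vertical axis) for the 10 tested probe sets (horizontal axis), 1 point for each of the ECS 6 h, ECS 2 h and sham groups. Aif1 is above 0.9 in all 3 groups, Csf1r 1419872_at and 1419873_s_at are above 0 in all 3, and C1qc is near 0 in ECS 6 h and sham and at -0.70 in ECS 2 h.

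The genes nearest to C1qc over the 6 arrays were found by the root mean square difference of log2 values centred on each probe set's mean, among 11656 tested single-symbol probe sets. The nearest 10 were Tmem109 (0.249), Borcs5 (0.249), Letm1 (0.260), Kcnj6 (0.286), Diaph2 (0.310), Clpb (0.359), Cbfa2t3 (0.372), Hgsnat (0.375), Resf1 (0.390) and Tgfbr3 (0.390), where the median over all was 0.913. Kcnj6 encodes a G protein-gated potassium channel and Letm1 a mitochondrial inner membrane protein, and no gene of the 8, or of the complement and microglia lists, was among the 10. Tmem109, the nearest, stood at 6.85 and 7.26 in ECS 6 h, 4.88 and 5.67 in ECS 2 h, and 5.57 and 6.24 in sham on the log2 scale. C1qb 1417063_at was the closest of the set at rank 583, followed by Csf1r 1419872_at at rank 3245. C1qa was at rank 9643, Tyrobp at rank 10479 and Aif1 at rank 11017, behind most of the array. The ranks use the values for which C1qc was chosen. They also depend on how much each probe set varies by itself, as Aif1 did between replicate numbers. No link or lack of link between C1qc and the other genes is read from them.

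Complement genes outside C1q were mostly too dim to follow. Of 29 genes measured 7 were tested, 19 lay under the array median on all 6 arrays, and limma called 0 of the 7 in each comparison, with 0 at an unadjusted p under 0.05. Over all tested probe sets 3.46% to 4.004% passed that p. C1ra and C1s1, the proteases that act with C1q in the C1 complex, did not exceed intensities of 4.1 and 5.3. Cr1l (Crry), a complement regulator of mouse cells, was at 8.50 ± 0.185 in ECS 6 h, 8.01 ± 0.089 in ECS 2 h and 8.06 ± 0.159 in sham (SD, n = 2 each). Its ECS 6 h arrays did not overlap the others, with 0.45 ± 0.311 over sham (limma, adjusted p = 0.9998) and 0.49 ± 0.311 over ECS 2 h (limma, adjusted p = 0.999). Cfp, the properdin that stabilises the alternative pathway convertase, was at 0.42 ± 0.510 in ECS 6 h minus sham, and Cd93 and the inhibitor Cd59a were at -0.16 ± 0.504 and -0.17 ± 0.315. A second probe set of each went the other way, at 1.35 for Cd93 1419589_at, not tested, and 0.23 for Cd59a 1429830_a_at. The median change of the 7 was 0.09 in ECS 6 h minus sham, -0.11 in ECS 2 h minus sham and 0.26 in ECS 6 h minus ECS 2 h. With 1 array left out these ranged from -0.07 to 0.14, from -0.23 to -0.09 and from 0.08 to 0.27, and without scaling they were 0.18, -0.24 and 0.44. The first was below 0 without sham replicate 1, ECS 2 h replicate 1 or ECS 6 h replicate 1, the second was farthest from 0 without sham replicate 1 or ECS 2 h replicate 1, and the third was under 0.1 without ECS 2 h replicate 2 or ECS 6 h replicate 1.

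Among 31 other microglia genes measured, 14 were tested and 14 lay under the array median on all 6 arrays. Several markers were dim: P2ry12 ranged from 8.2 to 46.1, Tmem119 from 2.2 to 59.2, Itgam (Cd11b) from 0.9 to 14.2, Ptprc (Cd45) from 3.1 to 10.4 and Spi1, which encodes PU.1, from 0.7 to 19.7. Others were not: 5 genes of the list reached the array median on all 6 arrays, among them Ctss, from 223.4 to 493.9, and Olfml3, from 42.9 to 96.8. The summed intensity of the 40 probe sets of this list ran from 1860 to 2458 in ECS 6 h, 1409 to 2143 in ECS 2 h and 1698 to 2612 in sham, so the groups overlapped, and its part in the C1qc result was not tested. limma called 0 of the 14 in each comparison, with 1, 0 and 0 at an unadjusted p under 0.05 in ECS 6 h minus sham, ECS 2 h minus sham and ECS 6 h minus ECS 2 h. In that order 3.75%, 4.004% and 3.46% of all tested probe sets passed the same p. Of these 14 genes, 4 were higher and 10 lower in ECS 6 h minus sham, with a median of -0.07, in ECS 2 h minus sham 6 and 8, with -0.21, and in ECS 6 h minus ECS 2 h 5 and 9, with -0.12. Without ECS 6 h replicate 1 the first median was 0.03 and the last 0.30, without sham replicate 2 the first was -0.21, and without ECS 2 h replicate 2 the second was -0.10.

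Individual microglia genes differed in direction from each other. Cd53, a leukocyte tetraspanin, had 42.1 and 97.4 in ECS 6 h, 76.4 and 134.0 in ECS 2 h, and 186.9 and 133.4 in sham, a change of -1.14 ± 0.448 in ECS 6 h minus sham (limma, adjusted p = 0.9998). Fcer1g, an adaptor of Fc receptors related to Tyrobp, had 53.5 and 35.7 in ECS 6 h, 4.4 and 25.6 in ECS 2 h, and 43.3 and 45.6 in sham. Like C1qc it was lowest on the ECS 2 h arrays, by -1.02 ± 0.497 against sham (limma, adjusted p = 0.9997), but ECS 6 h minus sham was -0.02 ± 0.497. Ly86, a partner of a Toll-like receptor homologue, was at 0.49 ± 0.421 in ECS 6 h minus sham and 0.73 ± 0.421 in ECS 2 h minus sham. Olfml3 was at -0.53 ± 0.441 and 0.19 ± 0.441 in the same comparisons.

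Of 15 genes that signal to or from microglia, 9 were tested. limma called 0 of the 9 in each comparison, with 1, 1 and 2 at an unadjusted p under 0.05 in ECS 6 h minus sham, ECS 2 h minus sham and ECS 6 h minus ECS 2 h. In that order 3.75%, 4.004% and 3.46% of all tested probe sets passed the same p. The median change of the 9 was 0.08, 0.08 and 0.02 in the same order, and without sham replicate 2 the first 2 were -0.10 and -0.04. Csf1, the ligand of Csf1r, had 558.8 and 438.5 in ECS 6 h, 32.0 and 435.7 in ECS 2 h, and 59.2 and 122.8 in sham at its brightest probe set, 1460220_a_at. Both ECS 6 h arrays and 1 of the ECS 2 h arrays were high, and ECS 6 h minus sham was 2.22 ± 0.725 (limma, adjusted p = 0.9998). The other 3 Csf1 probe sets, none above 70.8, gave between -0.16 and 0.32 in that comparison. In ECS 2 h minus sham, 1425154_a_at gave 1.35 and 1425155_x_at 1.03, both not tested, and 1448914_a_at gave -0.10. The first 2 were highest on ECS 2 h replicate 1, at 70.8 and 41, where 1460220_a_at was lowest at 32.0, so the probe sets disagreed on that array. Il34, the second ligand of Csf1r, did not exceed 31.2 and was not tested. Cd47, which inhibits phagocytosis through Sirpa, was lower in ECS 2 h than in sham by -1.06 ± 0.224 at probe set 1459908_at (limma, adjusted p = 0.580), with 1020.8 and 1070.3 in ECS 6 h, 453.8 and 602.9 in ECS 2 h, and 871.4 and 1478.8 in sham. Its other 3 probe sets were also lower in ECS 2 h than in sham, between -0.83 and -0.26. Cx3cl1, the fractalkine ligand of Cx3cr1, was at -0.83 ± 0.491 in ECS 6 h minus sham at probe set 1415804_at, with -1.75 in replicate 1 and 0.08 in replicate 2. In ECS 2 h minus sham it was at -0.86 ± 0.491. In the same order Cx3cl1 1415803_at gave -0.14 and -0.82 and 1421610_at gave 0.37 and 0.29, both not tested. Tgfbr1 was at 0.16 ± 0.363 and 0.67 ± 0.363 at probe set 1420895_at. Its probe set 1420894_at gave 0.34 and -0.08, and 1420893_a_at, not tested, gave -0.34 and 0.33.

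Most genes of reactive microglia and cytokines were too dim to follow. Of 22 measured, 19 lay under the array median on all 6 arrays and 2 were tested, Axl and Ctsb. The highest intensity on any array was 0.8 for Il1a, 3.6 for Il1b, 0.3 for Il6, 1.6 for Tnf and 2.3 for Ccl2. Axl, a receptor for dying cells, was at 0.67 ± 0.536 in ECS 6 h minus sham and 0.40 ± 0.536 in ECS 2 h minus sham, and the lysosomal protease Ctsb at 0.19 ± 0.267 and -0.10 ± 0.267. The other Ctsb probe sets, dimmer but tested, differed in sign in ECS 6 h minus sham, at -0.21, -0.30 and 0.36. In ECS 2 h minus sham they were at -0.81, -0.24 and -0.41. limma called 0 of the 2 in each comparison, with 0 at an unadjusted p under 0.05, beside 3.46% to 4.004% of all tested probe sets.

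Markers of other macrophages and of blood were nearly absent. Of 11 genes of border macrophages measured, 1 was tested, Lyve1, at 0.75 ± 0.568 in ECS 6 h minus sham and 0.78 ± 0.568 in ECS 2 h minus sham. In the same order Lyve1 was at 1.54 and 1.63 in replicate 1 and at -0.04 and -0.07 in replicate 2. Of 13 blood leukocyte genes 1 was tested, S100a9, at 0.45 ± 0.469 and 0.81 ± 0.469 in the same comparisons. The list's summed intensity over 16 probe sets was 107 to 115 in ECS 6 h, 95.8 to 113 in ECS 2 h and 75.6 to 86.8 in sham. That sum was higher in both ECS groups than in sham, and its part in the C1qc result was not tested. It was taken without scaling, 14 of the 16 probe sets lay under the array median on all 6 arrays, and the highest value was 35. The border macrophage sum overlapped, at 154.1 to 220 in ECS 6 h, 158.7 to 185.1 in ECS 2 h and 83.4 to 161.1 in sham. Of 2 red cell genes 1 was tested, Alas2, at 0.74 ± 0.585 in ECS 6 h minus sham, and 0 of 3 ependymal and choroid plexus genes were tested.

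Among the other cells of the tissue, oligodendrocyte and neuron markers leaned lower after ECS. All 6 tested oligodendrocyte genes were lower in ECS 6 h than in sham, with a median of -0.63, and 5 of 6 in ECS 2 h, with -0.42, or -0.27 without sham replicate 2. Mbp, a myelin protein, was at -0.64 ± 0.193 in ECS 6 h minus sham and -0.34 ± 0.193 in ECS 2 h minus sham, and Cldn11 at -1.09 ± 0.369 and -0.80 ± 0.369. Of 14 neuron genes 12 were lower in each ECS group than in sham, with medians of -0.25 in ECS 6 h and -0.42 in ECS 2 h, and Snap25 was at -0.26 ± 0.120 and -0.46 ± 0.120. The ECS 6 h neuron median was -0.09 without scaling, -0.06 with median subtraction and -0.10 without ECS 6 h replicate 1, and the ECS 2 h one stayed between -0.47 and -0.34 under all settings. Snap25 in ECS 2 h had the smallest adjusted p of these lists (limma, adjusted p = 0.692). Astrocyte markers had medians of -0.07 and -0.13, and endothelial and mural markers of 0.04 and 0.04. limma called 0 genes of these lists, and at an unadjusted p under 0.05 it passed 2 oligodendrocyte and 0 neuron genes in ECS 6 h minus sham and 0 and 4 in ECS 2 h minus sham, out of 6 and 14, beside 3.75% and 4.004% of all tested probe sets. It also passed 2 of 8 endothelial and mural genes in ECS 6 h minus sham, Acta2 at -1.49 ± 0.495 and Pdgfrb at 0.97 ± 0.404. In ECS 2 h minus sham it passed 1 of 9 astrocyte genes, Slc1a3 at 0.59 ± 0.247. The astrocyte count in ECS 6 h minus sham and the endothelial and mural count in ECS 2 h minus sham were 0. Whether these shifts bear on the C1q and microglia values was not tested.

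The dissected tissue carried the peptide genes that mark the PVN: over the 6 arrays Oxt ran from 1494.5 to 3285.9, Avp from 804.3 to 1246.5 and Sim1 from 267.6 to 348.7, all above the array median on every array. The arrays themselves were uneven. Their median intensity was 28.4 and 35.8 in ECS 6 h, 25.3 and 32.7 in ECS 2 h, and 25.6 and 41 in sham. ECS 6 h replicate 1 stood apart, with a mean rank correlation with the others of 0.887 against 0.906 to 0.919, and with a Gapdh 3′ to 5′ ratio of 14.1 against 6.43 to 10.5. Without it C1qc was still higher in ECS 6 h, by 1.12 over sham and 2.00 over ECS 2 h, while Tyrobp was at -0.95 in ECS 6 h minus sham.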

How the data were processed

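RNA of microdissected PVN was measured on 6 Affymetrix arrays, 2 in each of 3 groups, with groups taken from the sample titles. The authors deposited linear intensities, for which the submitters' processing notes name MAS5. Its version, target and detection calls were not stated in the labels. Array medians differed, so the intensities were quantile-normalised, 16 was added and log2 taken from the deposited intensities. Without the 64 control probe sets 22626 remained, and the 12662 that reached the median of their array on at least 2 of 6 arrays were tested with limma 3.58.1 in R 4.3.3 (lmFit, eBayes with an intensity trend, 3 residual and 7.64 prior degrees of freedom, all 6 arrays in 1 fit, two-sided, Benjamini-Hochberg at 0.05), after checking the procedure on simulated data. The number of arrays limits the precision: an exact permutation test of 2 arrays against 2 cannot go below p = 0.333, and each array is a pool of 2 or 3 animals.

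Gene symbols came from the array annotation, matched to RefSeq by Entrez identifier for 20351 of 20380 single-symbol probe sets, with 0 symbols changed, while 691 probe sets with several symbols and 1555 with none were left unnamed. For a listed gene the probe set of highest mean signal was used. The 8 genes and all lists were chosen with earlier results of these data known, so counts over them are not independent support for patterns already seen. Named besides the 8 were, from each list, up to 4 tested genes with the smallest unadjusted p in any comparison, and the 10 probe sets nearest to C1qc. Other genes, given by their intensity only, were named after their values were seen. No column of another sample was in the table (0).

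Same-numbered arrays of the 3 groups deviated together (correlations of their deviations from the group means of 0.151, 0.185 and 0.228), and the labels describe 2 runs on different animals without tying the numbers to them, so the replicate number was also fitted as a block. Alternatives were offsets of 1 and 64, other scalings, other filters, no trend, the 4 arrays of a comparison alone, the block, and leaving out each array.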

Additional observations from a re-analysis of the deposited data

Results flagged for a closer look

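Some genes lay on opposite sides of sham in the ECS groups on every array after normalisation, which in these data was so for 110 tested probe sets (0.869%) with ECS 2 h below and ECS 6 h above sham and for 125 (0.987%) the other way. limma called 0 of 12662 probe sets in ECS 6 h minus ECS 2 h, and 438 had an unadjusted p under 0.05. C1qc was one of these genes, at 2.01 in ECS 6 h minus ECS 2 h. Of the 10 genes nearest to it over the arrays, Borcs5 was at 1.75, Kcnj6 at 1.74, Clpb at 1.49, Letm1 at 1.38, Diaph2 at 1.36, Cbfa2t3 at 1.27, Hgsnat at 1.27 and Resf1 at 1.12. C1qc was chosen for its values and these genes for their likeness to it. Their shared order follows from that choice and is no separate support for it. Slc1a3, an astrocyte glutamate transporter, went the other way at -0.76, with 503.7 and 555.6 in ECS 6 h, 695.3 and 861.9 in ECS 2 h, and 447.1 and 648.9 in sham. Its deposited ECS 6 h values lie between those of sham, and the order holds only after normalisation, at 8.90 and 9.07 in ECS 6 h, 9.79 and 9.71 in ECS 2 h, and 9.18 and 9.13 in sham. With 2 arrays a group, the separation of 1 such gene was not tested beyond the limma fit.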

How the results depend on the processing

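With 2 arrays a group, calls moved with the settings. In ECS 6 h minus sham, where 0 probe sets were called, leaving out 1 array gave 0 to 6, the 6 without ECS 6 h replicate 2. In ECS 2 h minus sham, also 0, the count was 1 without scaling, 1 with median subtraction, 4 with the replicate block, 7 with the 4 arrays alone and 0 to 10 with 1 array left out, the 10 without either ECS 6 h array. In ECS 6 h minus ECS 2 h it was 0 to 3, the 3 without ECS 6 h replicate 2. The block changed no other call. C1qc minus the mean of C1qa and C1qb kept its sign throughout. C1qc was chosen for its values and the groups did not overlap in this gap, so leaving out 1 array could hardly reverse it. Against sham, the ECS 6 h value of 1.29 became 0.85 with an offset of 64 and 1.07 to 1.49 with 1 array left out. In ECS 2 h minus sham, -1.03 became -1.47 with an offset of 1, -0.57 with 64, and -1.25 to -0.82. Between the ECS groups, 2.32 became 3.01 with an offset of 1, 1.42 with 64, 1.94 with the dimmest C1qb probe set, and 2.10 to 2.53. Offsets change how far dim values are shrunk; the cause of the other moves was not tested. A lone array left in a group was assumed to vary like the others. Of 612 recomputed changes of the 14 probe sets 49 moved by more than the replicate spread and 52 changed sign, and of 513 recomputed list medians 74 and 57. The median of all probe sets shifted by 0.16 in ECS 6 h minus ECS 2 h without scaling and by 0.10 in ECS 6 h minus sham with median subtraction. Genes whose probe sets lie under the array median cannot be judged at this signal.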
